A study of Rattus norvegicus with 9 samples.

Results

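The genes described here carry peptides onto MHC class I molecules: the light chain B2m, the class I regulator Nlrc5, the peptide transporter subunits Tap1 and Tap2, the loading factor Tapbp, the immunoproteasome subunits Psmb8, Psmb9 and Psmb10, the peptide-trimming enzyme Erap1 and the chaperone Canx. They were taken as the rows of the expression table with these symbols. All 10 were found among the 20442 genes of the table. Each had at least 1 FPKM (fragments divided by gene length and by the library's assigned reads) in each of the 9 libraries, so all 10 were among the 11141 genes that reached 1 FPKM in at least 3 libraries and were tested.

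MHC class I molecules show peptides from inside a cell to CD8 T cells. The peptides are cut by the proteasome, whose catalytic subunits are exchanged for Psmb8, Psmb9 and Psmb10 in the immunoproteasome, are pumped into the endoplasmic reticulum by the Tap1-Tap2 transporter, are trimmed there by Erap1, and are loaded with the help of Tapbp (tapasin) onto heavy chains that Canx (calnexin) has helped to fold and that B2m has joined. Interferons and NF-kB signalling are known to induce many of these genes, and Nlrc5 drives transcription of class I genes. Dendritic cells use the pathway to prime CD8 T cells, including with antigen taken up from outside.

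The cells were wild-type rat bone marrow-derived dendritic cells, grown in 10% serum with GM-CSF and IL-4 at 20 ng/mL each. Control cultures (n = 3) are labelled as untreated, LPS cultures (n = 3) as given lipopolysaccharide, the bacterial endotoxin that Tlr4 senses, and LPS+EVs cultures (n = 3) as given LPS and extracellular vesicles; the study's title says that the vesicles came from ASCs. A treatment note repeated for every sample gives 1 µg/mL LPS, 24 h and 50 ng/mL of something it does not name; the vesicle dose is not given in the sources used here, and the note was taken as not applying to Control. If the unnamed agent was added to the LPS cultures, its effect and that of LPS cannot be told apart in the comparisons with Control. The age of the rats is not given in the sources used here. Replicates are called biological, but nothing states that they came from separate animals, so the p-values measure the spread between these cultures only.

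Depth ran from 32148734 to 39407293 assigned reads per library. B2m alone took 60807 to 155361 of them, 0.154% to 0.423% of a library, and the lowest count of any member in a library was 1621 reads, for Nlrc5. The library numbered 2 stood apart in each group on the second principal component (-20.93 for Control, -41.13 for LPS, -35.92 for LPS+EVs), against 1.468 to 33.95 in the other libraries. Summed FPKM of 16 dendritic cell markers, which class II chains and Cd74 dominate, was 8425 to 9975 in these 3 libraries and 1388 to 3661 in the other 6. The sum of 7 stromal markers was lower in them, 117 to 159 against 373 to 855. Among dendritic cell markers the integrin Itgax was present at 29.8 to 52 FPKM and Sirpa at 71.4 to 174. Ccr7 was at 48.5 to 417 FPKM, Cd86 at 37.9 to 161, Batf3 at 10.1 to 37.9 and Irf4 at 9.41 to 32.7. Cd1d1 was at 5.72 to 16.3 FPKM and Zbtb46 at 1.41 to 3.36. Flt3 did not exceed 0.108 FPKM, Clec9a 0.437 FPKM and Xcr1 0.0204 FPKM. Macrophage and monocyte markers (13 genes) summed to 1478 to 1655 FPKM in Control, 1342 to 1844 in LPS and 1601 to 2055 in LPS+EVs. Single genes moved in opposite directions within this sum. Cd14 was 285 to 321 FPKM in Control and 547 to 1027 in the treated libraries, Mrc1 114 to 192 and 8.70 to 10.2. Neutrophil markers (9 of 10 in the table) summed to 31.2 to 265 FPKM in Control and 1.94 to 18.4 in the treated libraries, T and NK cell markers (6 of 11 in the table) to 23.7 to 35.5 and 10.4 to 17.0, and erythroid markers (4 of 6 in the table) to 55.2 to 448 and 3.72 to 9.58. B and plasma cell markers (4 of 7 in the table) did not exceed 0.222 FPKM in sum. No marker gene in the table was at 0 in all libraries. The part of these cell types in the results below was not tested, and in bulk RNA fewer cells of a type and less RNA per cell cannot be told apart.

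The stretch of 250 bases before the annotated start is shown for 5 members, chosen after their values were seen. It was taken from the RefSeq promoter table in the build GRCr8 (the expression values were made on mRatBN7.2). The matched promoters of Tap2, Psmb8 and Psmb9 are not shown. Whether matches in a promoter go with a change under LPS was not tested. B2m (chr3:129549080-129549329, plus strand), Tap1 (chr20:4668544-4668793, minus strand) and Tapbp (chr20:4967878-4968127, minus strand) rose with LPS, and Psmb10 (chr19:50743293-50743542, minus strand) and Canx (chr10:35157858-35158107, minus strand) fell. Sequences run 5′ to 3′ and capitals mark matches to the interferon response core GAAANNGAA or to the NF-kB consensus, on either strand.
B2m: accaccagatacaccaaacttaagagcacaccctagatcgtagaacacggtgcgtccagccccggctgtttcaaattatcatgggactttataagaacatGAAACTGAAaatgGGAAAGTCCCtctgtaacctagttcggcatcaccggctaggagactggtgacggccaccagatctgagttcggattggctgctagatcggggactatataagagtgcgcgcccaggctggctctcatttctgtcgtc
Tap1: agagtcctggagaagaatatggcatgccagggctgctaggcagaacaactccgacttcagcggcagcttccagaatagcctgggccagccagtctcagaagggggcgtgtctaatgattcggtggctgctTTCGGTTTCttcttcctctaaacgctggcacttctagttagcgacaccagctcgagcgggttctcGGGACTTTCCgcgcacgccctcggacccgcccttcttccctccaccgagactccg
Tapbp: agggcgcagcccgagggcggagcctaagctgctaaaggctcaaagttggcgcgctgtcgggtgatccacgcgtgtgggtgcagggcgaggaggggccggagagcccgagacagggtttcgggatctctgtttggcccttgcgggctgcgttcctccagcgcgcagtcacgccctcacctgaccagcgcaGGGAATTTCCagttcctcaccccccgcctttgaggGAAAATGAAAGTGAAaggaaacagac
Psmb10: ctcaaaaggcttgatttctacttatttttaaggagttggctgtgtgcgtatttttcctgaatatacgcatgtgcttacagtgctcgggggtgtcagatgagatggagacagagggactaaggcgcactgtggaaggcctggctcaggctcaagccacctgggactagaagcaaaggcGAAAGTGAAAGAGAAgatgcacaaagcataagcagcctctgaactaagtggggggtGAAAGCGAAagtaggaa
Canx: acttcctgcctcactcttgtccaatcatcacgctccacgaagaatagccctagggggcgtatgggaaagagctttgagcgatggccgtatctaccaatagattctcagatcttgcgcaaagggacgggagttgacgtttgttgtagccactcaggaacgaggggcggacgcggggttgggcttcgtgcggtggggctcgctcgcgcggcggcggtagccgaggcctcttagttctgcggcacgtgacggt

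Promoters of 8 of the 10 members were matched; those of Nlrc5 and Erap1 were not used here. In windows of 250 bases before to 50 bases after the start, the interferon response core was found in 6 of 8 members (B2m, Tap1, Tap2, Tapbp, Psmb8 and Psmb10) and in 9.71% of all 33469 promoters, or 7.68% of the 9125 promoters of tested genes. In Tapbp 2 overlapping cores began 26 and 20 bases before the start. Psmb10 held 3 cores, which began 73, 67 and 17 bases before its start. The B2m core began 150 bases before the start, followed by an NF-kB match 137 bases before it. The NF-kB consensus was found in B2m, Tap1 and Tapbp, 3 of 8 members, against 7.51% of all promoters and 9.78% of those of tested genes. The gamma-activated site TTCNNNGAA was found in Psmb8 alone of the 8 (8.87% of all promoters), and the Y-box core CCAAT in B2m, Psmb8, Psmb9 and Canx (37.5% of all promoters). Neither the interferon core nor the NF-kB consensus was found in the windows of Psmb9 and Canx, nor in those of Psmb5, Psmb6 and Psmb7, the constitutive subunits that the immunoproteasome subunits replace. Tap1 and Psmb9 lie head to head on opposite strands, and their windows share 44 bases. These matches are letters in a window and no measure of binding. Psmb10, with the most interferon cores, was lower in LPS than in Control, as the values below show.

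The comparison of LPS with Control asks how the endotoxin moved the pathway after 24 h. Of the 10 members, 4 rose (Nlrc5, Tapbp, Tap1 and B2m) and 2 fell (Psmb10 and Canx) at an adjusted p under 0.05, by limma on log2(FPKM + 1) with Benjamini-Hochberg adjustment over all 11141 genes. Among all genes tested, 12.3% rose and 28.7% fell by the same rule. The replicate numbers were taken to pair the cultures across groups, which no label states. With all pairs of groups pooled, correlations between libraries of the same number overlapped those between different numbers. Within each pair of groups every same-number correlation was above every different-number one. For Control and LPS these were 0.376 to 0.423 against at most 0.0797. Results with the block still rest on the assumed pairing. With the replicate number as a block, Tap2 (adjusted p = 0.00156) and Psmb9 (adjusted p = 0.0172) were also higher. That made 6 members higher and 2 lower, where 17.2% and 35.5% of all genes were. Without the libraries numbered 2, which left 2 in each group, 5 members were higher (the 4 named and Tap2, adjusted p = 0.00352) and 2 lower. The 3 LPS values lay above all 3 Control values for 5 members and below them for 2, against 17.5% and 37.6% of all genes. The median log2 difference was 0.54 over the members and -0.19 over all genes tested. That shift of all genes depends on the scaling: with median-of-ratios scaling it was -0.00, the members' median 0.75, and the calls over all genes went from 1368 higher and 3201 lower to 1893 and 2331. Under that scaling 5 members were higher, Tap2 being the fifth, and 1 lower, Canx.

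**Figure D1:**
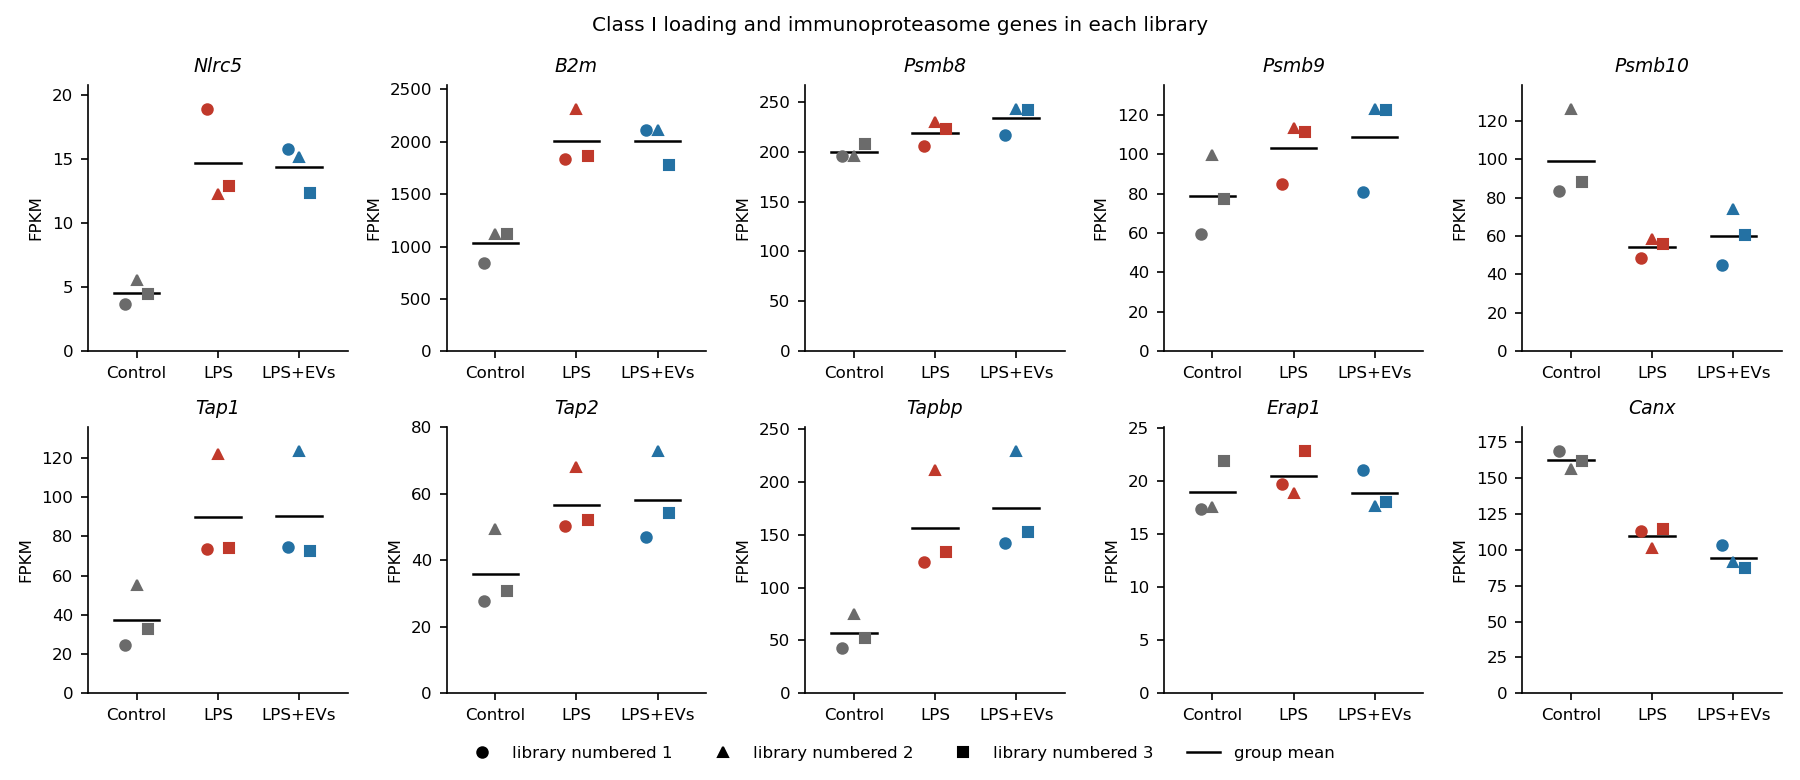
FPKM of each of the 10 genes (y axis, linear from 0) in the 9 libraries, grouped on the x axis, with the marker shape giving the library's number and the bar the group mean. Nlrc5, B2m, Tap1 and Tapbp are higher in all 6 treated libraries than in Control, Psmb10 and Canx are lower, and Tap1, Tap2, Tapbp, Psmb9 and Psmb10 are highest in the library numbered 2 of every group.

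Nlrc5, the transactivator of class I genes, was the least abundant member. It stood at 3.73, 5.56 and 4.45 FPKM in Control libraries 1 to 3, at 18.9, 12.2 and 12.9 in LPS and at 15.8, 15.1 and 12.3 in LPS+EVs. All 6 treated values lay above all 3 Control values. The log2 difference of LPS from Control was 1.48 (95% CI 1.03 to 1.93, adjusted p = 0.000657 by limma), or 2.79-fold on the FPKM + 1 scale. Within the same library number it was 2.07, 1.01 and 1.35, so number 1 had the larger difference.

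B2m, the light chain shared by all class I molecules, was the most abundant member and lay at the 99.5th percentile of tested genes in Control. It was 843, 1124 and 1122 FPKM in Control, 1834, 2314 and 1860 in LPS and 2116, 2110 and 1781 in LPS+EVs. The groups with LPS did not overlap Control. The log2 difference of LPS from Control was 0.96 (95% CI 0.59 to 1.34, adjusted p = 0.00223 by limma), and 1.12, 1.04 and 0.73 within numbers 1, 2 and 3. As a share of assigned reads, B2m went from 0.154% to 0.206% in Control to 0.336% to 0.423% in LPS.

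Among the catalytic immunoproteasome subunits, Psmb8 and Psmb9 were not called and Psmb10 fell. Psmb8, which carries the chymotrypsin-like activity, was 195, 195 and 208 FPKM in Control, 205, 229 and 222 in LPS and 216, 243 and 241 in LPS+EVs. Its Control and LPS values overlapped, and the log2 difference was 0.13 (95% CI -0.09 to 0.35, adjusted p = 0.301 by limma). Psmb9, encoded beside Tap1, was 59.6, 99.5 and 77.3 FPKM in Control, 84.9, 113 and 111 in LPS and 80.8, 123 and 122 in LPS+EVs. These groups overlapped, but LPS was above Control within each number, by 0.50, 0.18 and 0.52 log2 units. The difference of 0.40 (95% CI -0.12 to 0.93) had an adjusted p of 0.195 by limma without the block, and 0.0172 with it (95% CI 0.14 to 0.66). Psmb10, which replaces the trypsin-like subunit Psmb7, was 83.4, 126 and 88.0 FPKM in Control, 48.7, 58.5 and 55.6 in LPS and 45.1, 73.9 and 60.7 in LPS+EVs. All treated values lay below all Control values. Its log2 difference between LPS and Control was -0.84 (95% CI -1.32 to -0.36, adjusted p = 0.0136 by limma), and -0.76, -1.09 and -0.65 within the 3 numbers. With median-of-ratios scaling it was -0.62 with an adjusted p of 0.0887, and with the block added to that scaling 0.00213.

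Tap1 and Tap2 form the peptide transporter. Tap1 was 24.6, 55.3 and 33.0 FPKM in Control, 73.6, 122 and 74.2 in LPS and 74.6, 124 and 72.4 in LPS+EVs. Library 2 was the highest in each group, and the lowest LPS value lay above the highest Control value. The log2 difference of LPS from Control was 1.27 (95% CI 0.51 to 2.03, adjusted p = 0.0165 by limma, 0.000133 with the block), and the call was lost without Control replicate 1 (1.01, adjusted p = 0.0634) or Control replicate 3 (1.22, adjusted p = 0.0557). Tap2 was 27.6, 49.3 and 30.8 FPKM in Control, 50.1, 67.9 and 52.1 in LPS and 46.9, 72.9 and 54.2 in LPS+EVs. Control library 2 lay just under LPS library 1. Its difference of 0.68 (95% CI 0.12 to 1.23) had an adjusted p of 0.0537 by limma, which the block lowered to 0.00156 (95% CI 0.42 to 0.93). Tap2 was also past the threshold with median-of-ratios scaling (adjusted p = 0.0470), without Control replicate 2 (0.0165) and without LPS+EVs replicate 2 (0.0449).

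Tapbp, the tapasin gene, bridges the transporter and the empty class I molecule. It was 43.0, 75.2 and 52.6 FPKM in Control, 125, 211 and 133 in LPS and 142, 229 and 153 in LPS+EVs. The groups with LPS lay clear of Control, and number 2 was highest in each group. The log2 difference was 1.44 (95% CI 0.80 to 2.07, adjusted p = 0.00428 by limma), and 1.51, 1.47 and 1.32 within numbers 1, 2 and 3. In FPKM these are ratios of 2.90, 2.80 and 2.53, close to one another although the levels differed by number.

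Erap1, the endoplasmic reticulum aminopeptidase that trims peptides to length, did not pass the test. It was 17.3, 17.6 and 21.8 FPKM in Control, 19.7, 18.8 and 22.8 in LPS and 21.0, 17.6 and 18.0 in LPS+EVs. All groups overlapped, and the interval of its log2 difference between LPS and Control ran from -0.20 to 0.42 (adjusted p = 0.548 by limma). Canx, a lectin chaperone of newly made heavy chains and many other glycoproteins, was 169, 156 and 162 FPKM in Control, 113, 101 and 114 in LPS and 103, 91.1 and 87.4 in LPS+EVs. All treated values were below all Control values, with a log2 difference of LPS from Control of -0.56 (95% CI -0.80 to -0.33, adjusted p = 0.00324 by limma).

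By level per kilobase, the order in Control was B2m, Psmb8, Canx, Psmb10, Psmb9, Tapbp, Tap1, Tap2, Erap1 and Nlrc5. The ranges over libraries of neighbours in that order were clear of each other for B2m, Psmb8, Canx, Psmb10 and for Tap2, Erap1, Nlrc5, and overlapped from Psmb10 through Tap2. In LPS the order was B2m, Psmb8, Tapbp, Canx, Psmb9, Tap1, Tap2, Psmb10, Erap1 and Nlrc5. Tapbp moved from rank 6 to rank 3 and Psmb10 from rank 4 to rank 8, whereas Nlrc5 and Erap1 stayed at the bottom, where their ranges overlapped in LPS. The order in LPS+EVs differed from that in LPS by exchanges of Canx with Psmb9 and of Tap2 with Psmb10, pairs whose ranges overlapped.

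**Figure D2:**
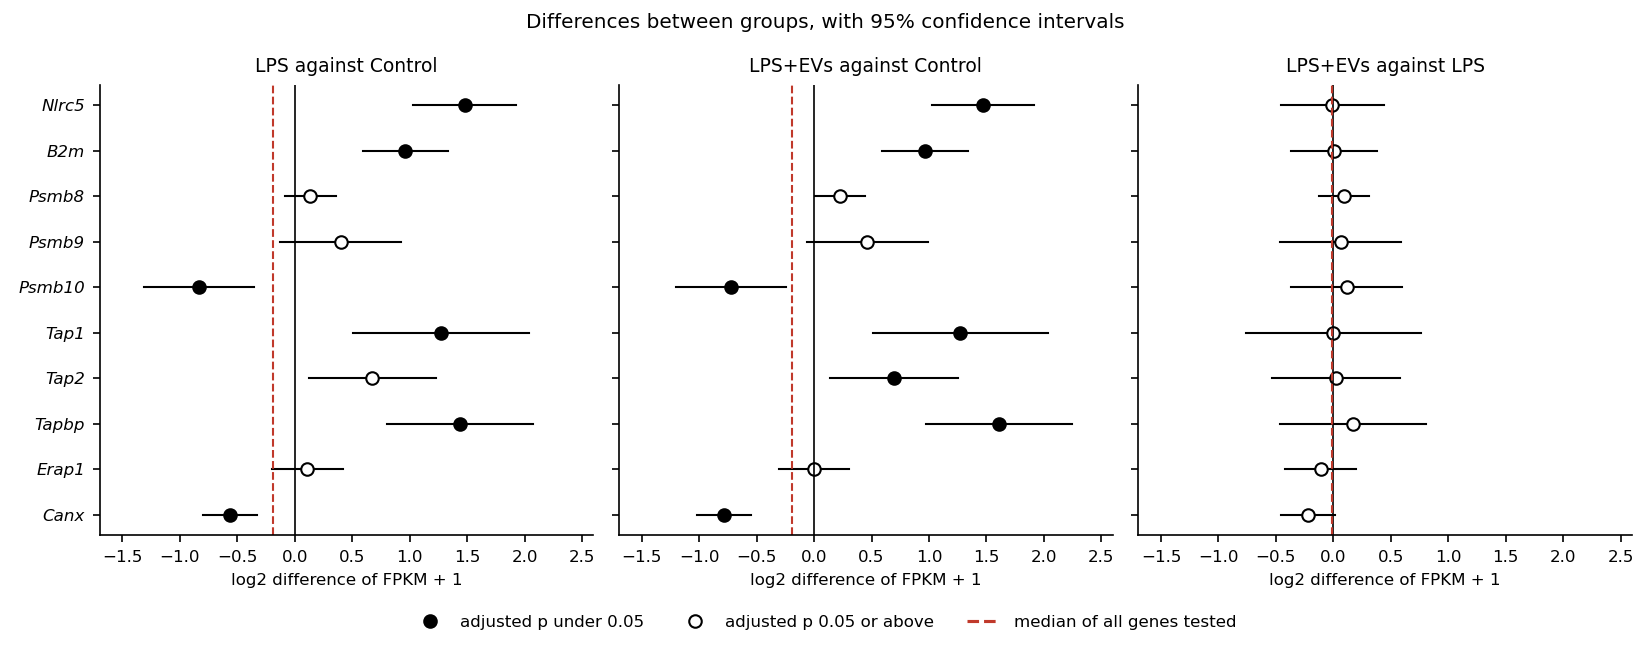
Log2 difference of FPKM + 1 (x axis) for each gene (y axis) in 3 comparisons, with the 95% confidence interval as a line; filled points have an adjusted p under 0.05 and the dashed line is the median of all genes tested. The intervals of Nlrc5, B2m, Tap1 and Tapbp lie above 0 and those of Psmb10 and Canx below 0 in both comparisons with Control, and all 10 intervals include 0 in LPS+EVs against LPS.

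LPS+EVs against LPS asks what the vesicles changed in cells that also received LPS. No member was called, and no gene of the 11141 was (0% by limma, also 0% with the replicate block). An unadjusted p under 0.05 by limma was found for 295 genes, under a 0.05 share of those tested, and none was a member. That number was 600 with the block and 1528 in the libraries numbered 1 and 3 alone. With 1 library left out it ran from 81 (without LPS replicate 3) to 1879 (without LPS replicate 2), so it depended on the libraries used. By limma-voom on recovered reads 0 genes were called and 276 had an unadjusted p under 0.05. The members' log2 differences ran from -0.22 in Canx to 0.17 in Tapbp. For B2m it was 0.00 (95% CI -0.37 to 0.38), for Nlrc5 -0.01 (-0.46 to 0.44), for Tap1 0.00 (-0.76 to 0.76) and for Tap2 0.02 (-0.53 to 0.58). With the replicate block the intervals of the transporter genes were -0.28 to 0.28 for Tap1 and -0.23 to 0.27 for Tap2. The 3 immunoproteasome subunits had intervals of -0.13 to 0.31 (Psmb8), -0.46 to 0.59 (Psmb9) and -0.36 to 0.59 (Psmb10), and Erap1 one of -0.42 to 0.20. Tapbp was higher in LPS+EVs than in LPS within each number, by 0.19, 0.12 and 0.20, and Canx lower within each, by -0.13, -0.15 and -0.38, but their intervals were -0.47 to 0.81 and -0.46 to 0.02 and both had an adjusted p of 0.999 by limma. Values of the groups overlapped for every member, where 3.14% of all genes were higher and 3.48% lower with no overlap. An adjusted p over the threshold does not show that the levels were alike; these intervals bound the change that 3 cultures against 3 could have missed.

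LPS+EVs against Control shares its Control libraries with the first comparison. Here 5 members rose, the 4 above and Tap2, and Psmb10 and Canx fell, where 13.5% and 30.8% of all genes did. The log2 differences were 1.47 in Nlrc5 (adjusted p = 0.000702 by limma), 0.97 in B2m (0.00212), 1.27 in Tap1 (0.0150), 0.70 in Tap2 (0.0454) and 1.61 in Tapbp (0.00236). They were -0.72 in Psmb10 (adjusted p = 0.0229 by limma) and -0.78 in Canx (0.000652). Psmb8 was at 0.23 (95% CI 0.00 to 0.45, adjusted p = 0.0896 by limma) and past the threshold with median-of-ratios scaling (0.0380). Psmb9 was at 0.46 (adjusted p = 0.134 by limma, 0.00875 with the block), and Erap1 at 0.00 (95% CI -0.31 to 0.31). With the block 6 members were higher and 2 lower, against 17.8% and 37.4% of all genes. Groups did not overlap for 5 higher members, with Psmb8 in place of Tap2, and for 2 lower ones, against 19.6% and 40.6%. Tap1 lost its call without Control replicate 1, Control replicate 3 or LPS+EVs replicate 2 (adjusted p = 0.0509 to 0.0577 by limma). Tap2 missed the threshold with the 6 compared libraries alone (adjusted p = 0.0540 by limma) and with no filter on low genes (0.0886). It also lost its call when any 1 of 6 libraries was left out, Control replicates 1 and 3, LPS replicates 1 and 3 and LPS+EVs replicates 2 and 3, with adjusted p = 0.0571 to 0.154 by limma. Psmb10 lost its call without Control replicate 2 or LPS+EVs replicate 1 (adjusted p = 0.0736 to 0.0748 by limma), and with median-of-ratios scaling (-0.50, adjusted p = 0.156).

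Each immunoproteasome subunit takes the place of 1 constitutive subunit, so their ratio was taken within each library, where library scaling cancels. Psmb8 over Psmb5 was 1.64, 1.62 and 1.91 in Control, 2.71, 3.52 and 2.96 in LPS and 3.45, 2.91 and 2.80 in LPS+EVs. The ratio was higher in all treated libraries than in Control. Psmb5 itself fell from 116 ± 6.54 FPKM in Control to 72.0 ± 5.95 in LPS (SD, n = 3; log2 difference -0.68, adjusted p = 0.00521 by limma), whereas Psmb8 did not pass the test. Psmb10 over Psmb7 was 0.498, 0.712 and 0.546 in Control, 0.365, 0.345 and 0.455 in LPS and 0.332, 0.431 and 0.416 in LPS+EVs. Here all treated ratios were below Control. Psmb9 over Psmb6 was 0.377, 0.530 and 0.497 in Control, 0.481, 0.576 and 0.783 in LPS and 0.468, 0.581 and 0.687 in LPS+EVs, with overlap. Within each library number it was above Control, by 0.35, 0.12 and 0.66 log2 units in LPS and by 0.31, 0.13 and 0.47 in LPS+EVs. The permutation test below does not use that pairing. Between LPS and Control the mean log2 ratio differed by 0.82 for Psmb8 over Psmb5, by 0.37 for Psmb9 over Psmb6 and by -0.59 for Psmb10 over Psmb7. Whether the 3 ratios differed from one another in their change was not tested. The exact permutation test (two-sided) gave p = 0.1, 0.3 and 0.1, where 0.1 is the smallest that 3 against 3 allows, and 0.225, 0.45 and 0.225 after Benjamini-Hochberg adjustment over the 9 tests of ratios. Between LPS+EVs and LPS the differences were -0.00, -0.07 and 0.02 with exact permutation p = 1, 0.8 and 1. Tap1 over Tap2, 2 subunits of 1 transporter, was 0.890, 1.12 and 1.07 in Control and 1.33 to 1.80 in the 6 treated libraries; this ratio was chosen after the values were seen and is given as a description.

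**Figure D3:**
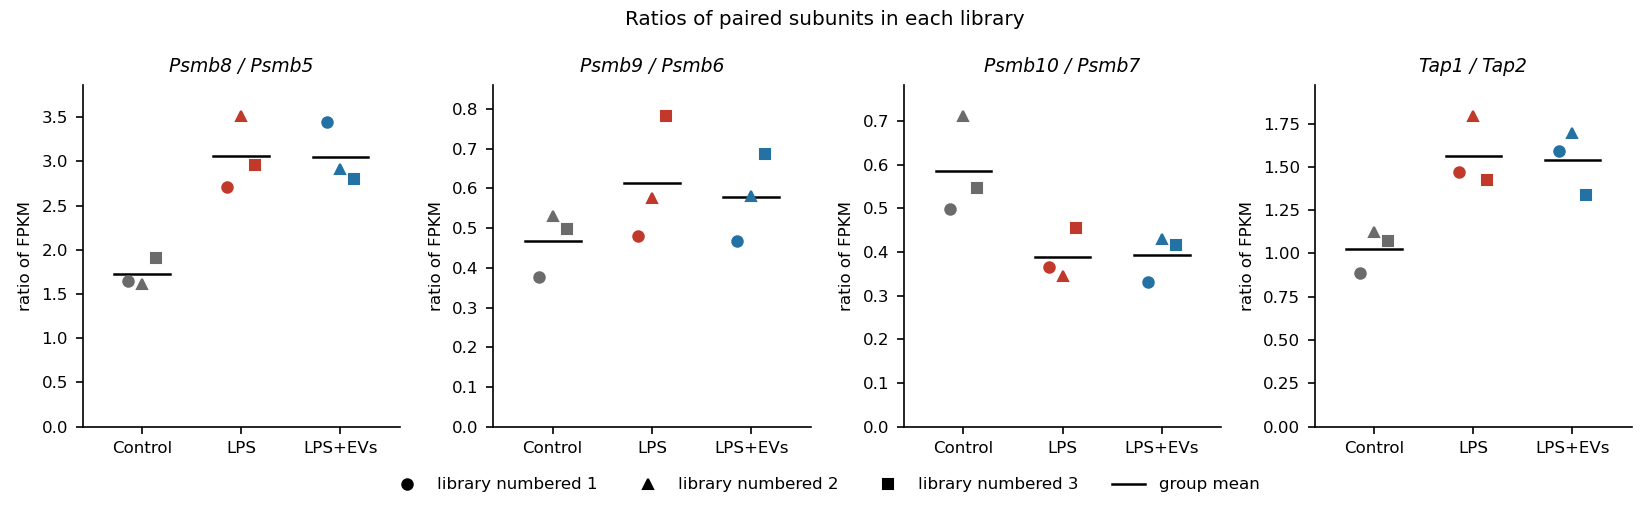
Ratio of the FPKM of paired subunits (y axis, linear from 0) in the 9 libraries by group; marker shapes give the library's number and bars the group mean. Psmb8 over Psmb5 and Tap1 over Tap2 lie higher and Psmb10 over Psmb7 lower in the treated libraries than in Control, with no overlap, while Psmb9 over Psmb6 overlaps.

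Several members were highest in the libraries numbered 2. Tap1, Tap2, Tapbp, Psmb9 and Psmb10 were highest in number 2 in all 3 groups, 5 of 10 members, where 9.58% of all genes tested (1067 of 11141) were. For Tap1 the library numbered 2 stood at 1.92, 1.65 and 1.68 times the mean of the other libraries of Control, LPS and LPS+EVs, and for Tapbp at 1.57, 1.63 and 1.55 times. For B2m the same figures were 1.14, 1.25 and 1.08, for Psmb8 0.969, 1.07 and 1.06 and for Canx 0.943, 0.890 and 0.957. These are the libraries with the high class II and low stromal marker sums given above, and the part of those cells in the members' levels was not tested. A fit without them, chosen after the data were seen, left 2 libraries in each group and dropped the highest value of Tap1 and Tapbp in each. In that fit the LPS against Control differences of Tap1 and Tapbp had an adjusted p of 0.00103 and 0.0006 by limma.

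Class I heavy chains, to which B2m binds, lie in the RT1 complex of the rat. The list of heavy chain and class I-like genes held 37 genes of the table, of which 28 were tested. LPS raised 12 and lowered 3 of them, where 12.3% and 28.7% of all genes were higher and lower. With the block it raised 19 and lowered 3, where 17.2% and 35.5% of all genes were. Without the libraries numbered 2 it raised 14 and lowered 2 of 27, where 1740 and 2867 of 10691 genes were. With all libraries the median log2 difference was 0.97 against -0.19 over all genes. By the smallest adjusted p, RT1-CE1 (1.51) and RT1-CE11 (1.79) rose, and RT1-T24-1 (-1.72) and Hfe (-1.65), a class I-like regulator of iron uptake, fell. RT1-CE1 went from 3.32, 2.50 and 3.31 FPKM in Control to 14.0, 9.40 and 8.68 in LPS, RT1-T24-1 from 8.45, 8.42 and 11.8 to 1.54, 2.44 and 2.67. RT1 class I genes are near-identical copies, and the counting settings are not given in the sources used here. Reads may have been split between copies, so the value of a single RT1 gene and the counts of called ones are uncertain. The sum over RT1 rows is less open to such splits, but would not hold any reads left out in counting. The 33 RT1 rows of the list summed to 410, 835 and 525 FPKM in Control. The sums were 984, 1378 and 937 in LPS and 942, 1555 and 1113 in LPS+EVs. Treated sums lay above all Control sums. B2m over this sum averaged 1.85 ± 0.436 in the Control libraries, 1.84 ± 0.154 with LPS alone and 1.73 ± 0.459 with vesicles added (SD, n = 3), differences smaller than these SDs.

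Single RT1 genes, chosen here after their values were seen, differed widely between library numbers. RT1-A3 was 40.8, 83.5 and 95.9 FPKM in the libraries numbered 2 of Control, LPS and LPS+EVs and 0.912 to 8.57 in the other 6. RT1-CE16 was 399, 632 and 773 FPKM in the libraries numbered 2 and 67.1 to 262 elsewhere. RT1-S2 was 13.8, 20.1 and 30.8 FPKM in the libraries numbered 3 and 17.3 in LPS library 1, but did not exceed 0.244 FPKM in the remaining 5. RT1-A2 went the other way, with 91.6, 161 and 173 FPKM in number 2 against 103 to 288 in the others, the lowest of its group each time. Of the 24 tested RT1 class I genes, 6 were highest and 6 lowest in number 2 in all groups.

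**Figure D4:**
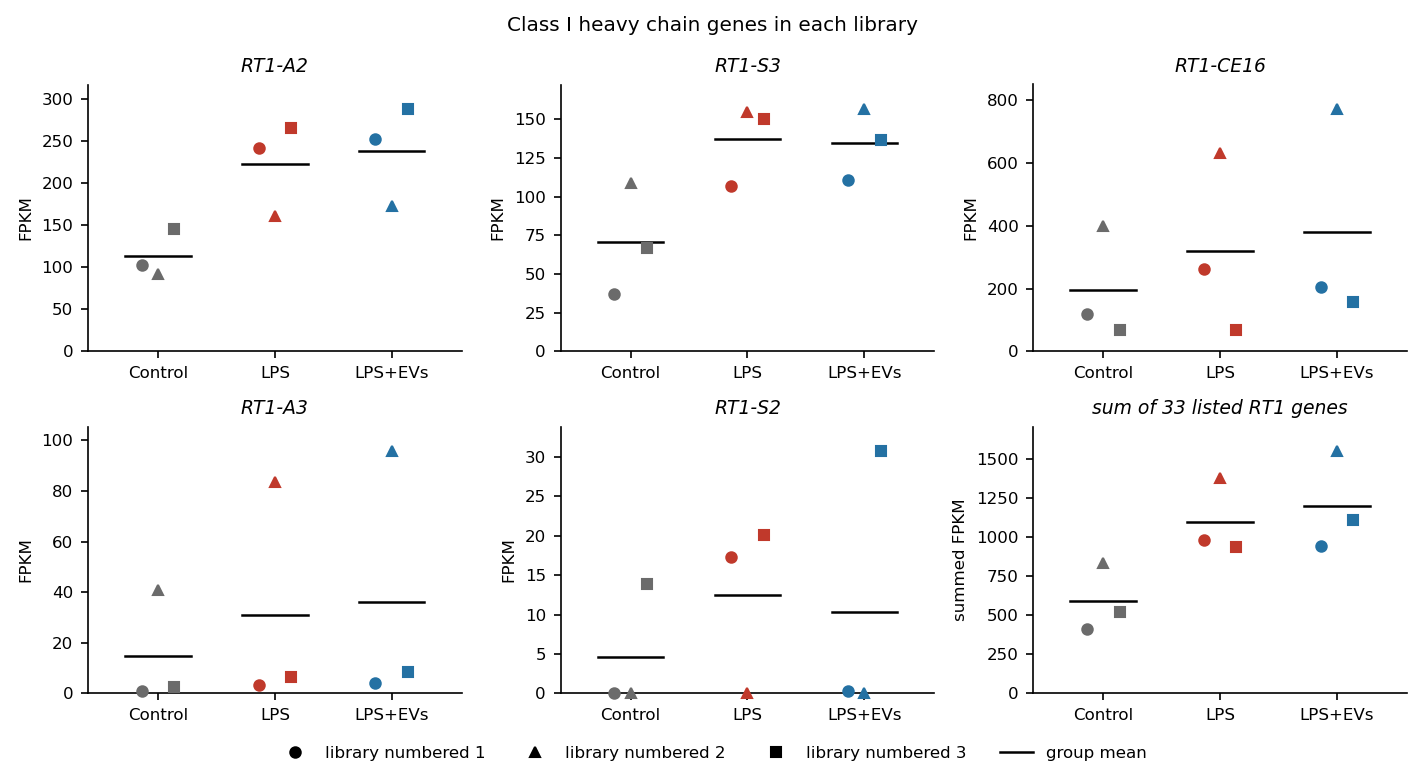
FPKM of 5 RT1 class I heavy chain genes and the summed FPKM of the 33 listed RT1 rows (y axes, linear from 0) in the 9 libraries by group, with marker shapes for the library's number and bars for the group mean. RT1-A3 and RT1-CE16 stand out in the libraries numbered 2 of each group, RT1-S2 is near 0 in 5 libraries, and the sum is higher in all treated libraries than in Control.

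The other parts of the pathway were read from lists of known function, and none of their tested genes was called in LPS+EVs against LPS. Their counts for LPS against Control are to be read beside the 12.3% of all genes that rose and the 28.7% that fell, and beside the counts with median-of-ratios scaling where these differ. Of 14 chaperones and factors of the endoplasmic reticulum, 6 fell and 1 rose with LPS (median -0.27), but 3 fell and 3 rose with median-of-ratios scaling (median -0.06). Hsp90b1, the Hsp90 of this compartment, fell from 517 ± 8.52 to 290 ± 14.8 FPKM (SD, n = 3). Sec61b (-1.09), a translocon subunit, and Uggt1 (-1.04), which marks misfolded glycoproteins for another round with calnexin, fell as well, whereas the disulfide isomerase P4hb rose by 1.25. Calreticulin (Calr), partner of Canx in the loading complex and named outside the list's rule for that role, fell by 0.65 (adjusted p = 0.0149 by limma). Its call was lost with median-of-ratios scaling (-0.43, adjusted p = 0.190) and without Control replicate 2 or LPS replicate 1 (adjusted p = 0.0539 to 0.0540). Pdia3, the isomerase of the loading complex, was at -0.26 (adjusted p = 0.0687 by limma).

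Of 11 structural subunits of the proteasome core, 4 fell and 1 rose (median -0.20). With median-of-ratios scaling 0 fell and 1 rose (median 0.02), so no direction of this list held under both scalings. Psmb2 was at -0.64, and at -0.43 with median-of-ratios scaling (adjusted p = 0.0928 by limma); Psma3 and Psma4 were both at -0.17 under that scaling (adjusted p = 0.330 and 0.441). Psma3 (-0.38), Psma4 (-0.38) and Psma6 (0.38) were past the threshold with all libraries and lost it, at an adjusted p of 0.0501 to 0.0883 by limma, when Control replicate 1 or 2 or LPS replicate 1 was left out. Psma3 and Psma6 lost it also without Control replicate 3 or LPS replicate 2. Of the 3 tested constitutive catalytic subunits, Psmb5 fell, and Psmb6 (0.03) and Psmb7 (-0.26) did not pass. Psmb7, over which the Psmb10 ratio was taken, passed as lower without LPS replicate 2 (-0.40, adjusted p = 0.0395 by limma) and in the libraries numbered 1 and 3 alone (-0.36, adjusted p = 0.0411). Of 10 activators, inhibitors and assembly factors, 4 fell and 1 rose (7 and 2 with the block). With both the block and median-of-ratios scaling 4 fell and 2 rose. The assembly chaperones Psmg4 (-0.98) and Psmg1 (-0.96) and the nuclear activator Psme3 (-0.94; adjusted p = 0.0529 without Control replicate 1 by limma) fell, and the proteasome inhibitor Psmf1 rose by 0.87. The interferon-inducible activator subunits Psme1 and Psme2, named for that role, were at -0.31 and 0.41 and passed with the block (adjusted p = 0.0398 and 0.0219 by limma). Cytosolic peptidases, which destroy or trim free peptides, gave 6 lower and 0 higher of 9 (1 higher with the block, 4 lower and 2 higher with median-of-ratios scaling), with a median of -0.75 (-0.54 with that scaling). Thop1 fell from 24.0 ± 3.98 to 5.04 ± 1.78 FPKM and Lap3 from 61.6 ± 4.34 to 21.9 ± 9.33 (SD, n = 3), and Blmh (-1.20) and Nln (-1.04) fell too.

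Regulators of class I genes were mixed, 7 higher and 4 lower of 30 tested (12 and 6 with the block), with a median of 0.15. With median-of-ratios scaling 8 were higher and 4 lower, with a median of 0.36. Irf7, an interferon-induced transcription factor, rose from 38.8, 194 and 93.8 FPKM in Control to 578, 1025 and 577 in LPS. Usp18, a brake on interferon signalling, rose by 2.57 log2 units, the suppressor Socs3 by 1.64 and the receptor chain Ifnar1 by 0.94. Irf1, known to bind class I promoters, was at 0.76 with overlapping groups (adjusted p = 0.188 by limma, 0.0157 with the block). Ifnb1 did not exceed 0.248 FPKM in any library. Ciita, the class II counterpart of Nlrc5, fell by 2.23 (adjusted p = 0.0185 by limma), the direction opposite to Nlrc5; its call was lost without Control replicate 2 (0.0578) or LPS replicate 1 (0.0610). Irf1, Ifnb1 and Ciita were named for their role after their values were seen. Of 13 genes of cross-presentation, 5 fell and 1 rose (5 and 2 with median-of-ratios scaling), near the shares over all genes. The mannose receptor Mrc1 fell by 3.98, the oxidase subunit Cybb by 0.90, Rab27a by 1.38 and the LPS receptor Tlr4 by 1.90. Of 8 genes listed under shedding and turnover of class I, 3 fell and 1 rose (median -0.14). Whether each of them acts on class I molecules in these cells was not tested. With median-of-ratios scaling 1 fell and 2 rose (median 0.05). Under that scaling Sel1l (-0.20, adjusted p = 0.292 by limma) and Syvn1 (-0.29, adjusted p = 0.175) lost their calls. Syvn1 also missed the threshold with no filter (adjusted p = 0.0642 by limma) and with the 6 compared libraries alone (0.0674), as did Derl1 with these 6 (0.0534). The ubiquitin ligase Marchf1 (-1.12), the degradation factors Syvn1 (-0.50) and Sel1l (-0.41) and the channel component Derl1 (0.31) all lost their calls without Control replicate 3, and the adjusted p reached 0.0509 to 0.125 by limma where calls were lost. Calls were also lost without Control replicate 1, LPS replicate 1 or LPS replicate 2 for Marchf1, Syvn1 and Derl1, without Control replicate 2 for Syvn1 and Derl1, without LPS replicate 3 for Derl1, and without LPS+EVs replicate 1 or 2 for Syvn1.

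**Figure D5:**
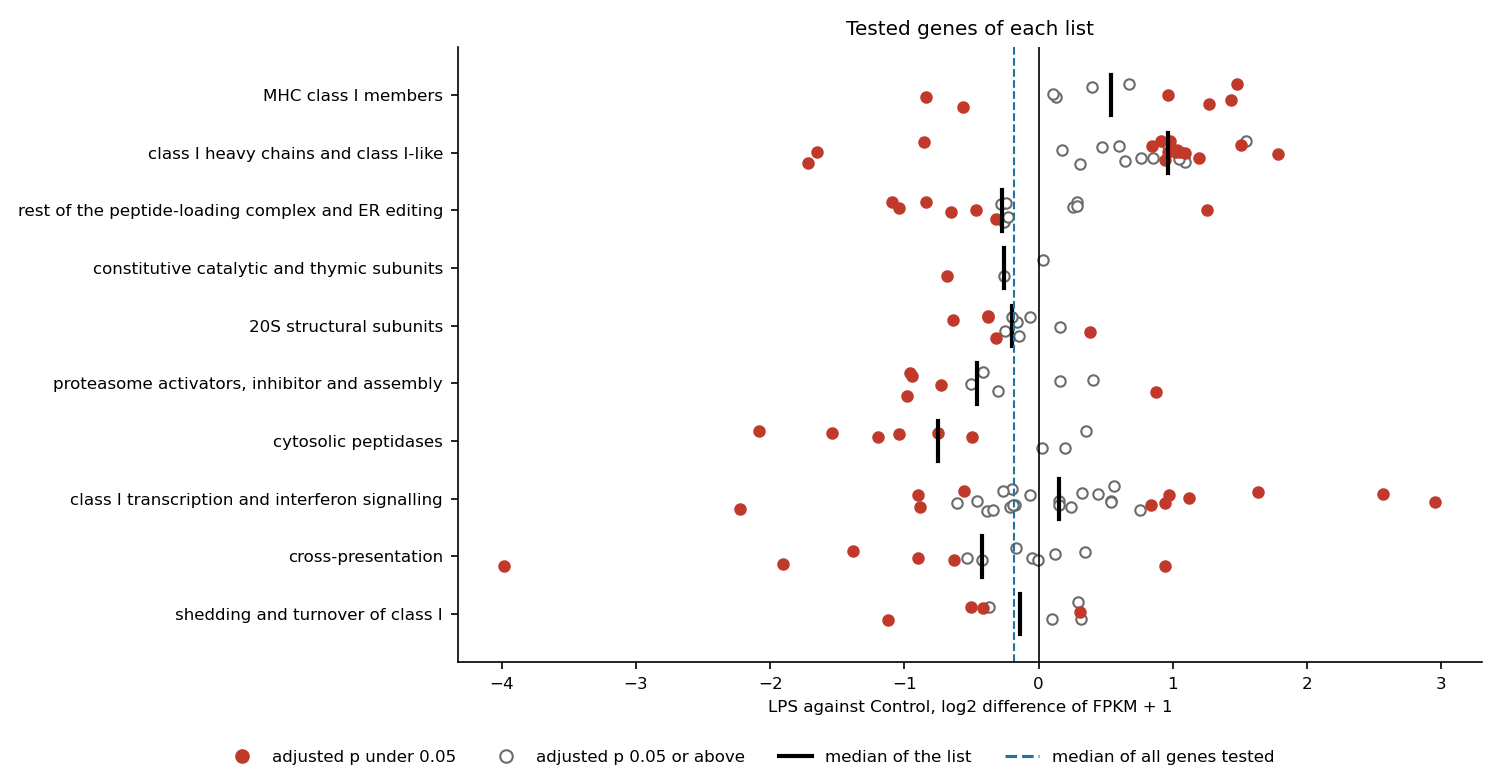
Log2 difference of FPKM + 1 between LPS and Control (x axis) for the tested genes of each list (y axis; the vertical scatter within a list carries no value), with filled points at an adjusted p under 0.05, a bar at the list's median and a dashed line at the median of all genes tested. The medians of the members (0.54) and of the heavy chains (0.97) lie right of the dashed line (-0.19), and that of the cytosolic peptidases (-0.75) lies left of it.

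The genes whose pattern over the 9 libraries was most like that of Nlrc5, by Pearson's r of log2(FPKM + 1), were Fam219a (0.996), Gas6 (0.995), Tmem127 (0.988), Riok3 (0.988), Ednrb (0.988) and Tp53inp2 (0.987). Fam219a was 6.90, 9.49 and 8.28 FPKM in Control, 27.7, 21.2 and 20.2 in LPS and 23.0, 23.5 and 21.0 in LPS+EVs. These points share their libraries and the step from Control to treated, so r is a description. Of the members, B2m ranked 268th (0.927), Tapbp 618th (0.879) and Tap1 883rd (0.840) of 11140 genes. Over the 6 treated libraries alone, r with Nlrc5 was -0.16 for B2m, -0.37 for Tapbp, -0.23 for Tap1 and -0.73 for Psmb9. It was -0.34 for Tap2, -0.67 for Psmb8 and -0.42 for Psmb10, but 0.39 for Canx and 0.06 for Erap1. The 6 most alike genes had 0.746 to 0.947, but they were picked for a high r over libraries that include these 6.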

How the data were processed

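RNA was sequenced from 9 rat cultures in 3 groups of 3. Per the submitters' processing notes, fastp, HISAT2 and HTSeq were run by the authors on mRatBN7.2, with R 3.2.0; settings are not given in the sources used here. The deposited table holds FPKM for 20442 genes, used with its symbols and scaling; the FPKM steps gave whole reads for 100% of the 18833 genes seen in 2 or more libraries (tolerance 0.01 reads). For a 1-kilobase gene the floor of 3 reads was 0.0761 to 0.0933 FPKM, for counting error only. Genes reaching 1 FPKM in 3 or more libraries were kept, and log2(FPKM + 1) was fitted across all 9 libraries with limma 3.58.1 (R 4.3.3), 1 mean per group, with a trend in the variance; p-values are two-sided, adjusted by Benjamini-Hochberg over all genes tested in a comparison, with a threshold of 0.05. Fold changes on this scale understate those of low genes. The fit was tested on simulated data. Ratios were tested by exact permutation.

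After removal of group means, libraries of the same replicate number (a number in the labels) correlated at 0.284 to 0.863 over 9 pairs. Others correlated at -0.745 to 0.426 over 18 pairs, so the pooled ranges overlapped. Within each pair of groups they did not. Same-number values were 0.376 to 0.423 against at most 0.0797 for Control and LPS. They were 0.284 to 0.509 against at most 0.129 for Control and LPS+EVs. For LPS and LPS+EVs they were 0.646 to 0.863 against at most 0.426. The numbers were taken to pair the cultures, which no label states. The members and lists were chosen with earlier results of these data known. Named genes are the 10 members, the 4 tested genes of each other list with the smallest adjusted p in LPS against Control, any called in LPS+EVs against LPS, and the 6 most like Nlrc5; others are said to be chosen later. A planned comparison of protein sequences was not made. Alternatives were median-of-ratios scaling, no filter, 0.1 added in place of 1, a fit to the 6 libraries of a comparison, the replicate block (also with that scaling) and leaving out each library; chosen after seeing the data were limma-voom on recovered reads and the libraries numbered 1 and 3 alone. Other steps ran in Python 3.11.15 (pandas 2.3.3, numpy 2.4.6, scipy 1.17.1, matplotlib 3.10.9).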

Additional observations from a re-analysis of the deposited data

How the results depend on the processing

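Each member had at least 1621 reads in each library, whereas several RT1 genes had far fewer; whether depth limited the calls was not tested. Of the members' values under the alternatives, 158 of 170 kept their direction and side of the threshold in LPS against Control, 152 of 170 in LPS+EVs against Control and 170 of 170 in LPS+EVs against LPS, and none changed sign where called. With both the block by replicate number and median-of-ratios scaling, genes higher than in Control numbered 2685 in LPS and 2809 in LPS+EVs, and 7 members were higher in LPS. The replicate block alone gave 1912 higher and 3950 lower genes in LPS against Control, and changed no member's call other than those of Tap2 and Psmb9 given above. With median-of-ratios scaling 1 member was lower than Control in LPS and 1 in LPS+EVs, Canx, and calls in LPS+EVs against Control went from 1505 higher and 3436 lower to 2073 and 2507.

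Leaving out 1 library gave 891 to 1496 genes higher and 1884 to 3185 lower in LPS than in Control, the fewest without Control replicate 1; without Control replicate 3, 2055 were lower. It gave 3 to 5 members higher in LPS than in Control, 3 without Control replicate 1 or 3. For LPS+EVs against Control it gave 1045 to 1789 higher and 2194 to 3987 lower genes (2194 without Control replicate 1, 2271 without Control replicate 3), 3 to 5 members higher and 1 to 2 lower; the fewest higher members came without Control replicate 1, Control replicate 3 or LPS+EVs replicate 2, and the fewest lower members without Control replicate 2 or LPS+EVs replicate 1. For LPS+EVs against LPS it gave 0 to 1 genes higher, the 1 without LPS replicate 2. The cause of these shifts was not tested; a left-out library also lowers the number of samples. Of the other named genes' values, 541 of 591 kept direction and side in LPS against Control. Limma-voom on recovered reads called 1333 genes higher and 3171 lower in that comparison.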
